A study of Mus musculus with 6 samples.

Results

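The genes that make and equip a red blood cell were examined in RNA-seq libraries of AE9a leukemia cells with and without Ddit4. The set was a list of 39 genes grouped by function: globins, carbonic anhydrases, enzymes of heme synthesis, iron and heme carriers, parts of the red cell membrane, and a pair of other red cell proteins. Of the 55421 gene rows in the count table, 38 belonged to the list. The globin chaperone Ahsp was not analysed here.

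AE9a (AML1-ETO9a) is a shortened AML1-ETO fusion protein that causes acute myeloid leukemia in mice. C57BL/6 donors were either Ddit4+/+ or Ddit4-/-. Their c-Kit+ bone marrow stem and progenitor cells were infected with a retrovirus carrying AE9a and GFP, and the GFP+ cells were transplanted into irradiated recipients. Leukemia cells from bone marrow gave 3 libraries labelled AE9a-Ddit4+/+ and 3 labelled AE9a-Ddit4-/-, so both groups carried AE9a and differed by the labels in the Ddit4 allele alone. The labels also mention maintenance of leukemia cells in IMDM medium with serum. The study's account of these cells points to 3 mice per group, but the labels do not tie each library to a mouse. The p-values therefore measure the spread between libraries. In the study, fewer than 3 primary recipients of AE9a-Ddit4-/- cells had developed leukemia when observation ended. Libraries of that group may therefore share a primary leukemia, which cannot be told apart from the genotype. The labels also do not say whether GFP+ cells were sorted before RNA extraction, so RNA from host marrow cells could be present. The extent of the deletion in the knockout allele is not stated either.

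A maturing erythroblast fills itself with hemoglobin, a tetramer of alpha and beta globin chains that each hold a heme. Heme is assembled from glycine, succinyl-CoA and iron in a chain of reactions that starts and ends in the mitochondrion, and iron enters the cell with transferrin. Under the membrane lies a mesh of spectrin tied to the anion exchanger band 3 by ankyrin and protein 4.2, which gives red cells their shape and strength. In the erythroid lineage many of these genes are activated by the transcription factors GATA1 and KLF1.

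Counts per library came to between 62141558 and 72717681, and 21097 to 23771 genes were detected. Expression is given as CPM, the counts for every 1e+06 counts of the TMM-scaled library, in the order of libraries 1, 2 and 3, and 12 counts, taken as the limit of detection, correspond to 0.163 to 0.198 CPM. Ddit4 itself stood at 228, 161 and 342 CPM in AE9a-Ddit4+/+ and at 84.9, 77.7 and 85.9 CPM in AE9a-Ddit4-/- (log2 fold change -1.56 ± 0.28 (SE), adjusted p = 0.00635), so the groups did not overlap but RNA of the locus was still counted. At the protein level, the study found no DDIT4 in AE9a-Ddit4-/- leukemia cells by western blot. Mitochondrial genes took 5.03% to 7.90% of the counts in AE9a-Ddit4+/+ and 11.3% to 16.4% in AE9a-Ddit4-/- libraries. The Y-linked gene Ddx3y was at 0.0633, 0.0589 and 0.0774 CPM in AE9a-Ddit4+/+ and at 120.4, 125 and 88.2 CPM in AE9a-Ddit4-/- libraries, so the sex of the cells and the genotype cannot be told apart. Xist, an RNA of female cells, was at 1032, 566 and 884 CPM in AE9a-Ddit4+/+ and at 63.2, 20.3 and 129 CPM in AE9a-Ddit4-/- libraries. The AE9a-Ddit4-/- libraries thus held both Y-linked RNA and Xist, least Xist in library 2. The study's recipients were female, and whether this Xist came from host cells was not tested. The mouse gene Runx1t1, the counterpart of the ETO portion of the fusion, was at 6.47, 11.1 and 18.1 CPM in AE9a-Ddit4+/+ and at 206, 141 and 69.9 CPM in AE9a-Ddit4-/- libraries, and whether these counts came from the vector is not known.

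Of the 38 genes with a row, 37 had enough counts to be tested. In AE9a-Ddit4-/- cells 24 of them were lower with an adjusted p below 0.05 (edgeR quasi-likelihood test, Benjamini-Hochberg adjustment over all 18375 genes tested), which is 64.9% of the genes of the list that were tested against a background of 10.7% of all genes. None was higher at that threshold, where 19.4% of all genes were higher. By edgeR at an unadjusted p below 0.05 the numbers were 25 lower and 0 higher, and DESeq2 called 0 higher as well. All 3 AE9a-Ddit4-/- libraries lay below all 3 AE9a-Ddit4+/+ libraries for 25 genes of the list, or 67.6%, against 22.2% of all genes. The median log2 fold change was -1.92 over the list and 0.04 over all genes tested (-0.17 over genes with an average above 4 log2 CPM). With any 1 library left out, 21 to 23 genes of the list were lower. Leaving out AE9a-Ddit4-/- library 1 moved the fold change of 4 lower genes by over 1.5 times, to -5.37 on the log2 scale for Hbb-bs, -4.98 for Hba-a2, -6.56 for Sptb and -5.95 for Ermap, and no other library did so for any of the 24. In bulk RNA, fewer cells of a type and less RNA per cell cannot be told apart.

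**Figure D1:**
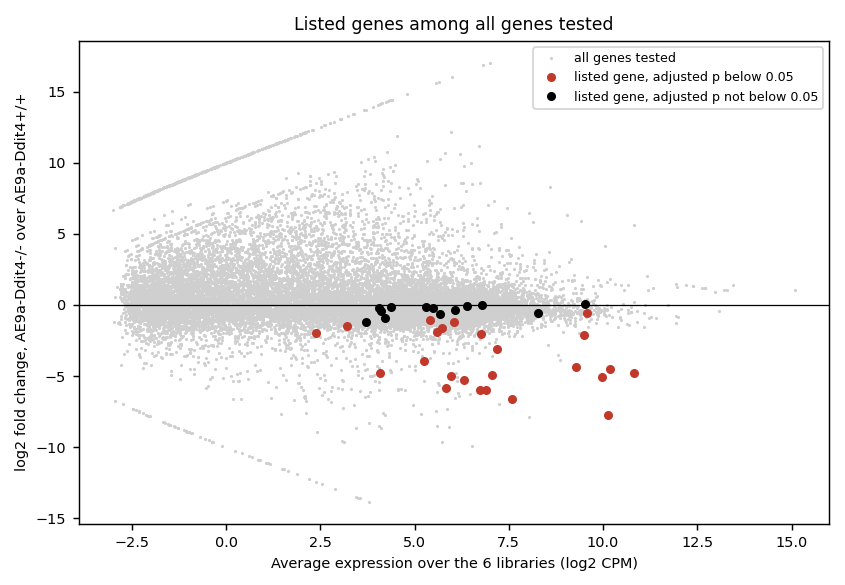
Each grey point is 1 of the 18375 genes tested, placed by its average expression (log2 CPM, horizontal) and its log2 fold change of AE9a-Ddit4-/- over AE9a-Ddit4+/+ (vertical), and larger points are the 37 listed genes. The 24 listed genes past the threshold (red) lie below 0 and reach -7.74, and the 13 others (black) lie between -1.22 and 0.10. The slanting rows of grey points are genes with no counts in 1 group, whose fitted fold change is set by the prior count.

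The groups of genes differed in how many members were lower. All 4 globin genes tested, both carbonic anhydrases, 6 of 8 heme enzymes and 5 of 6 blood group and surface genes were lower. Of the 3 mitochondrial carriers 2 were lower, of the 6 genes of the membrane skeleton and band 3 complex 3, of the other red cell proteins 1 of 2, and of the 6 genes of iron uptake, storage and export 1. Of the 24 lower genes, 17 were lower by at least 2 log2 units.

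**Figure D2:**
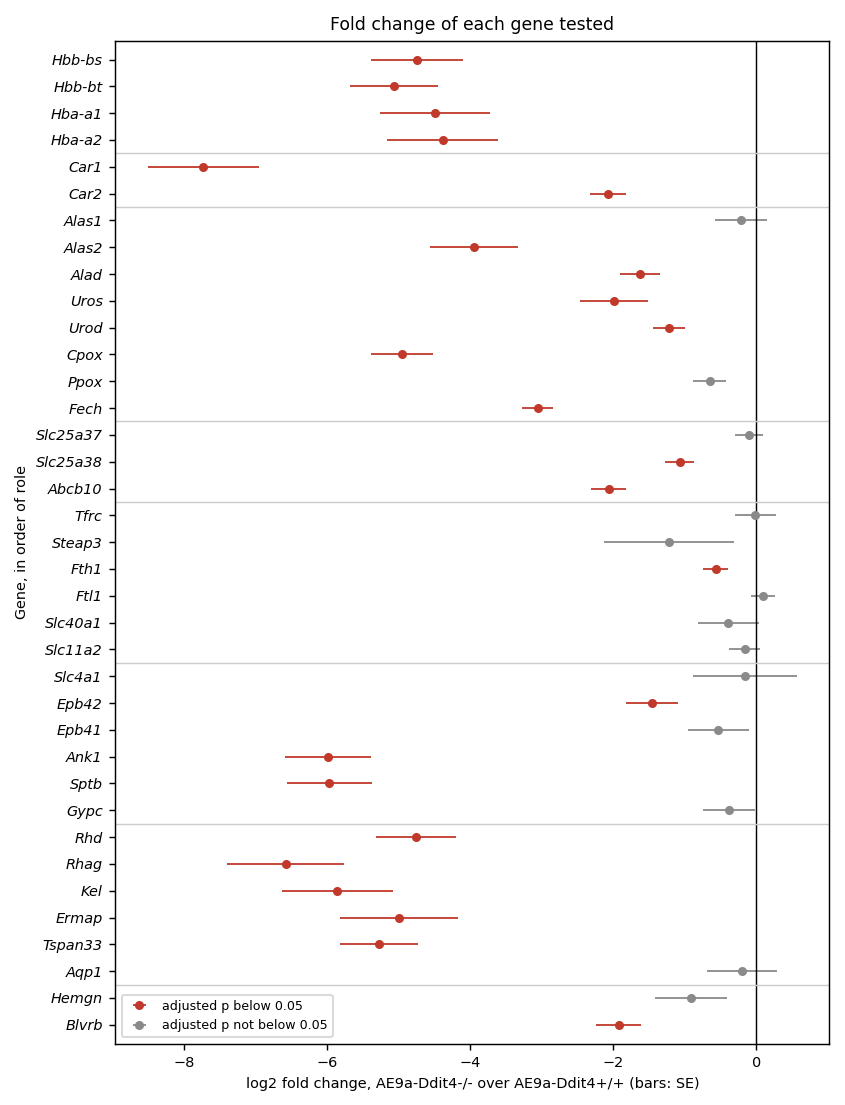
Points give the log2 fold change of AE9a-Ddit4-/- over AE9a-Ddit4+/+ for the 37 genes tested and bars its SE, with the genes stacked by role between grey lines. Globins, Car1, Cpox, Ank1, Sptb and 5 of 6 surface genes lie beyond -4, and most iron genes lie near 0.

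The adult globin genes were among the most abundant genes of the list in AE9a-Ddit4+/+ cells and were 20.9 to 33.6 times lower in AE9a-Ddit4-/- cells by the ratio of mean CPM. These ratios leaned on single libraries, and were 31.8 to 48.6 without AE9a-Ddit4-/- library 1, the highest of its group for each globin, while without AE9a-Ddit4+/+ library 1 those of Hba-a1 and Hba-a2 were 15.4 and 14.1. The beta chain is made from Hbb-bs and its neighbour Hbb-bt, which lie at chr7:103826534-103828096 and chr7:103812524-103813996 on the minus strand (GRCm38, protein-coding). The alpha chain is made from Hba-a1 and Hba-a2 (chr11:32283511-32284465 and chr11:32296489-32297298, plus strand). The 250 bases before each start site, as given by RefSeq on GRCm38.p6, are shown because these genes fell together. The gene positions given above come from GENCODE, which places the starts differently. These windows therefore reach into the gene spans given above. Capitals mark matches on either strand to GATAA, the core of the GATA factor motif, to CCNCNCCC, a CACCC-type motif of the KLF family, to CCAAT and to TATAAA.
Hbb-bs (chr7:103827929-103828178, minus strand): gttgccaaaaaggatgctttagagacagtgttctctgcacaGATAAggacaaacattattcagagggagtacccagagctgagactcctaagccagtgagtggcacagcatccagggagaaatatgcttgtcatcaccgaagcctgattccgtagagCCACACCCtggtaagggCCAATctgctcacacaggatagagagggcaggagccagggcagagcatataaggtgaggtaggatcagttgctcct
Hbb-bt (chr7:103813924-103814173, minus strand): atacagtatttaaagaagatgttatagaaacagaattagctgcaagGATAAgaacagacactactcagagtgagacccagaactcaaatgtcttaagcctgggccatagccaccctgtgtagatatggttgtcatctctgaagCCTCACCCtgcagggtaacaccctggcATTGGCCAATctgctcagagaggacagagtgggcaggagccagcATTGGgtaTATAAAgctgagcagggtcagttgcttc
Hba-a1 (chr11:32283422-32283671, plus strand): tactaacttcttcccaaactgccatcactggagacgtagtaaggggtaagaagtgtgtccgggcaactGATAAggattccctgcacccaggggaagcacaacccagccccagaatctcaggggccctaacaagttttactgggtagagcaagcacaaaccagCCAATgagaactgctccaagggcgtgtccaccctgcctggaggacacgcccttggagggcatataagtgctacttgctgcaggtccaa
The Hba-a2 window (chr11:32296242-32296491) held the same bases over 247 of its 250 positions, shifted by 3. Each of the 4 windows held a GATAA and a CCAAT. The windows of Hbb-bs and Hbb-bt held a CCNCNCCC as well, and that of Hbb-bt a TATAAA.

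Hbb-bs was measured at 4056, 2529 and 3799 CPM in AE9a-Ddit4+/+ and at 219.7, 38.5 and 129 CPM in AE9a-Ddit4-/- (log2 fold change -4.75 ± 0.64 (SE), adjusted p = 0.00212). Hbb-bt was at 2261, 1270.3 and 2338 CPM and 94.2, 19.6 and 61.0 CPM, in the same order of groups (log2 fold change -5.07 ± 0.62 (SE), adjusted p = 0.00148). For both genes every AE9a-Ddit4-/- library was far below every AE9a-Ddit4+/+ library, with library 2 the lowest in each group. Hba-a1 was at 3644, 839 and 2199 CPM against 165, 30.7 and 101 CPM (log2 fold change -4.50 ± 0.77 (SE), adjusted p = 0.00516). Hba-a2 was at 1966, 394 and 1217 CPM against 96.2, 19.4 and 55.6 CPM (log2 fold change -4.39 ± 0.78 (SE), adjusted p = 0.00586). The alpha genes again did not overlap between groups, but they spread more widely among the AE9a-Ddit4+/+ libraries than the beta genes, with library 2 far below the others. The embryonic gene Hbb-bh1 had 0 counts in each of the 6 libraries, which allows at most the limit of detection, and it was not tested.

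The 4 adult genes together took 1.17%, 0.529% and 0.992% of the counts in AE9a-Ddit4+/+ and 0.0576%, 0.00996% and 0.0350% in AE9a-Ddit4-/- libraries. The groups did not overlap (exact two-sided permutation test, n = 3 each, p = 0.1, 0.167 adjusted over 5 ratios and shares, where 0.1 is the smallest p this design can give). Per kilobase of exon, the ratio of alpha to beta globin counts was 0.875, 0.318 and 0.548 in AE9a-Ddit4+/+ and 0.826, 0.857 and 0.817 in AE9a-Ddit4-/- libraries. This ratio overlapped between groups (difference 0.64 in mean log2 ratio, exact permutation p = 0.4, adjusted 0.4), and it was narrow in the AE9a-Ddit4-/- libraries while globin itself varied 5.71-fold for Hbb-bs. Hbb-bt gave 35.8%, 33.4% and 38.1% of the adult beta globin counts in AE9a-Ddit4+/+ and 30.0%, 33.8% and 32.1% in AE9a-Ddit4-/- libraries (exact permutation p = 0.2, adjusted 0.25). The split between copies is uncertain, since the transcripts of Hba-a1 and Hba-a2 share 537 of 538 aligned bases and those of Hbb-bs and Hbb-bt 582 of 625, and how the authors counted shared reads is not stated in the sources used here.

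Per length, the order of the list changed. In AE9a-Ddit4+/+ cells the mean levels were 4507 CPM per kilobase for Hbb-bs, 2783 for Hbb-bt, 2743 for Hba-a1, 1804 for Car1 and 1788 for Hba-a2, followed by Ftl1 at 534. In AE9a-Ddit4-/- cells Ftl1 was first with 571 CPM per kilobase, followed by Fth1 with 178, Hbb-bs with 168, Hba-a1 with 122 and Car2 with 114. Neighbours in these orders were not tested against each other.

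**Figure D3:**
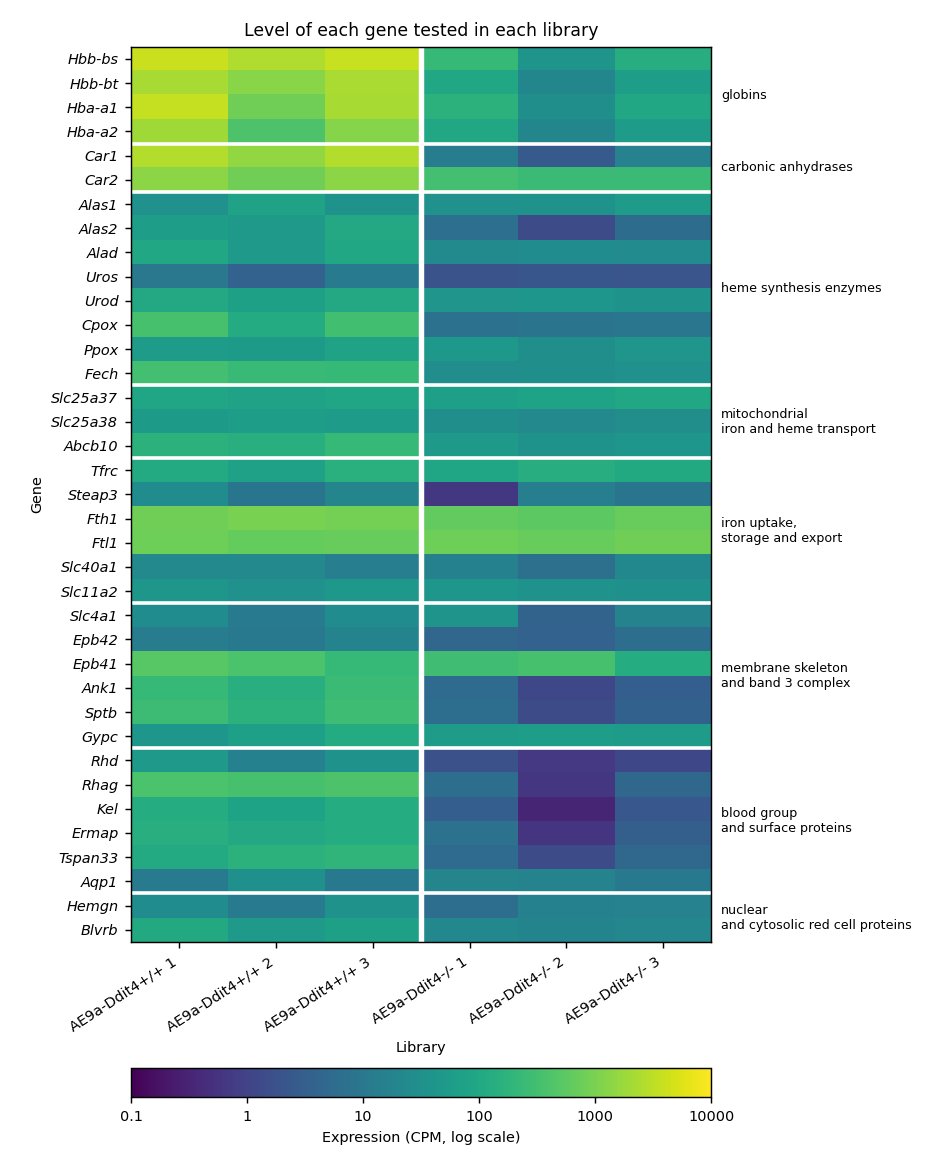
Colour gives the level (CPM, log scale) of each of the 37 genes tested (rows, grouped by role) in each of the 6 libraries (columns). The globin and Car1 rows go from bright cells in the 3 AE9a-Ddit4+/+ libraries to darker cells in the 3 AE9a-Ddit4-/- libraries. There the globins lie in the middle of the scale and Car1 lies lower. AE9a-Ddit4-/- library 2 is darkest in many of the lower rows.

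The carbonic anhydrases interconvert carbon dioxide and bicarbonate, and Car1 and Car2 are abundant red cell proteins from neighbouring genes at chr3:14766216-14808368 and chr3:14886273-14900770. Car1 was at 2628, 1514 and 2614 CPM in AE9a-Ddit4+/+ and at 12.4, 2.63 and 16.7 CPM in AE9a-Ddit4-/- libraries. It had the largest fall of the list (log2 fold change -7.74 ± 0.78 (SE), adjusted p = 0.000772), 213 times by mean CPM. Car2, which other blood cells also use, was at 1352, 820.1 and 1332 CPM against 322, 254 and 255 CPM (log2 fold change -2.08 ± 0.25 (SE), adjusted p = 0.00142). Both genes were lower in each AE9a-Ddit4-/- library than in any AE9a-Ddit4+/+ library, and Car2 kept at least 253.6 CPM.

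Heme synthesis starts with 5-aminolevulinate synthase, which has an erythroid form, Alas2, and a form used by all cells, Alas1. Alas2 lies on the X chromosome (chrX:150547375-150570638, plus strand). It was at 62.4, 51.0 and 102 CPM in AE9a-Ddit4+/+ and at 6.7, 1.38 and 5.89 CPM in AE9a-Ddit4-/- (log2 fold change -3.95 ± 0.61 (SE), adjusted p = 0.00361). Alas1 was at 33.5, 75.4 and 35.9 CPM against 33.1, 37.0 and 54.7 CPM, with overlapping groups (log2 fold change -0.21 ± 0.37 (SE), adjusted p = 0.695). The ratio of Alas2 to Alas1 counts was 1.87, 0.676 and 2.85 in AE9a-Ddit4+/+ and 0.202, 0.0373 and 0.108 in AE9a-Ddit4-/- libraries. These did not overlap (difference -4.04 in mean log2 ratio, exact permutation p = 0.1, adjusted 0.167). Alas2 shares 311 exon bases with Apex2 on the opposite strand, and whether strand was used in counting is not stated in the sources used here. Apex2 was at 6.60, 5.91 and 11.3 CPM in AE9a-Ddit4+/+ and at 4.32, 4.16 and 3.96 CPM in AE9a-Ddit4-/- libraries. In the latter its mean of 4.15 CPM was close to the 4.66 CPM of Alas2, so the AE9a-Ddit4-/- level of Alas2, its fold change and its ratio to Alas1 are uncertain.

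The later enzymes fell by unequal amounts. Cpox, coproporphyrinogen oxidase (chr16:58670292-58717636, plus strand), was at 354, 121 and 303 CPM against 7.77, 8.28 and 9.07 CPM (log2 fold change -4.95 ± 0.43 (SE), adjusted p = 0.000502). Fech, ferrochelatase, which puts iron into the ring as the last step, was at 318, 243 and 221 CPM against 28.2, 31.2 and 34.6 CPM (log2 fold change -3.06 ± 0.22 (SE), adjusted p = 0.000265). These AE9a-Ddit4-/- libraries lay close together, unlike those of the globins. The other steps changed less. Alad, which forms porphobilinogen, had a log2 fold change of -1.62 (adjusted p = 0.00534) and Urod, uroporphyrinogen decarboxylase, one of -1.22 (adjusted p = 0.00594). Uros, uroporphyrinogen III synthase, was low throughout, at 9.86, 3.79 and 11.1 CPM against 1.9, 2.22 and 2.11 CPM (log2 fold change -1.99 ± 0.47 (SE), adjusted p = 0.0177). Its adjusted p rose to 0.0541, 0.0611, 0.0652 and 0.0564 without AE9a-Ddit4+/+ library 1 or 3 or AE9a-Ddit4-/- library 1 or 3. Ppox, protoporphyrinogen oxidase, was at 55.8, 54.2 and 75.8 CPM against 46.4, 31.4 and 40.5 CPM, did not overlap between groups and did not pass (log2 fold change -0.65 ± 0.23 (SE), adjusted p = 0.0723). It shares 791 exon bases with B4galt3 on the opposite strand, a gene at 83.4% of its mean CPM, so its value is uncertain.

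**Figure D4:**
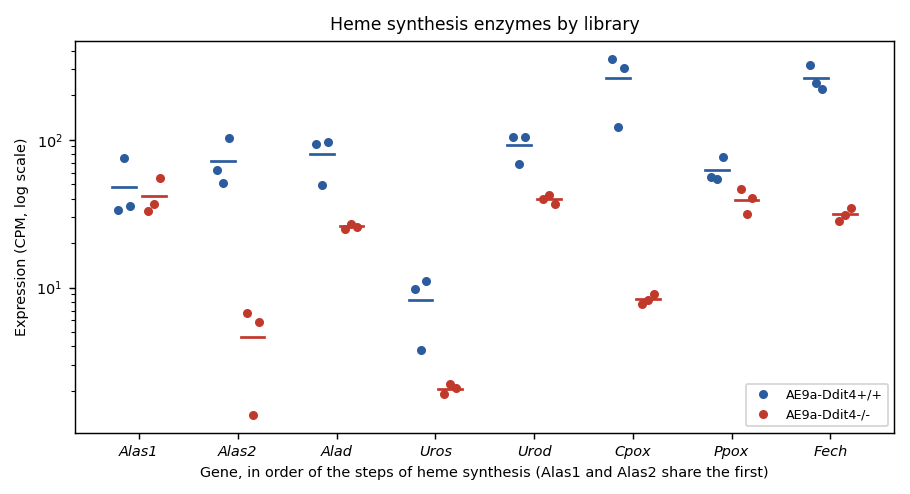
Points give the level (CPM, log scale) of each listed heme synthesis gene in each library, in the order of the pathway, with AE9a-Ddit4+/+ in blue and AE9a-Ddit4-/- in red, and lines the means of 3 libraries. Alas2, Cpox and Fech show the widest gaps between groups, Alas1 overlaps, and among the genes past the threshold the red points spread most for Alas2.

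The windows before the starts of Alas2 and Cpox are shown with the same marking, as the heme genes with the largest falls for which a window was at hand.
Alas2 (chrX:150547167-150547416, plus strand): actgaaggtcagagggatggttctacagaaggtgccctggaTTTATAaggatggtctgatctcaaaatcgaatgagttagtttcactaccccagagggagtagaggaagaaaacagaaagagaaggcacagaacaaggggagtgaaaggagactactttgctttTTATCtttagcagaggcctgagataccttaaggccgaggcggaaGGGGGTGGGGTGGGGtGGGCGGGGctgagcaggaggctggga
Cpox (chr16:58669958-58670207, plus strand): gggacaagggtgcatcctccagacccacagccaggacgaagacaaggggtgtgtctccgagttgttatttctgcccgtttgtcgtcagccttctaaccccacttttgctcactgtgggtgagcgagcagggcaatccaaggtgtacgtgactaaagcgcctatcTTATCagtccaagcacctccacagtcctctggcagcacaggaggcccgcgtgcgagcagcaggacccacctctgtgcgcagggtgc
In both, the GATAA was found on the opposite strand, 86 to 82 bases before the start.

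Of the mitochondrial carriers, Abcb10, an inner membrane transporter needed for heme synthesis, was at 166, 138 and 226 CPM against 48.1, 36.4 and 42.1 CPM (log2 fold change -2.07 ± 0.24 (SE), adjusted p = 0.00124). Slc25a38, which brings in glycine for the first step, was at 53.8, 61.9 and 57.2 CPM against 30.3, 22.9 and 29.2 CPM (log2 fold change -1.07 ± 0.20 (SE), adjusted p = 0.00693). Both were lower in each AE9a-Ddit4-/- library. Slc25a37 (mitoferrin-1), which brings in iron, was at 91.6, 75.5 and 90.8 CPM against 67.9, 79.1 and 93.9 CPM, with overlapping groups (log2 fold change -0.10 ± 0.20 (SE), adjusted p = 0.733).

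The iron genes gave values nearer to each other in the 2 groups. Tfrc, the transferrin receptor, was at 112, 72.9 and 146 CPM in AE9a-Ddit4+/+ and at 89.4, 132 and 108 CPM in AE9a-Ddit4-/- (log2 fold change -0.01 ± 0.28 (SE), adjusted p = 0.982). The groups overlapped, and the sign of this value depended on the scaling of the libraries. The divalent metal transporter Slc11a2, the iron exporter Slc40a1 and the ferritin light chain Ftl1 had log2 fold changes of -0.16 ± 0.22, -0.39 ± 0.43 and 0.10 ± 0.17 (SE) and did not pass. Steap3, which reduces iron in the endosome, varied 21.8-fold among AE9a-Ddit4-/- libraries, from 0.642 CPM in library 1 to 14.0 CPM in library 2 (adjusted p = 0.351). The ferritin heavy chain Fth1 was at 839.9, 1007 and 898 CPM against 628, 541 and 685 CPM (log2 fold change -0.57 ± 0.18 (SE), adjusted p = 0.0464), and the call was lost without any 1 library (adjusted p 0.0592 to 0.111). Within each library, the ratio of Ftl1 to Fth1 counts was 0.918, 0.667 and 0.783 in AE9a-Ddit4+/+ and 1.24, 1.25 and 1.22 in AE9a-Ddit4-/- libraries. These ratios did not overlap (difference 0.66 in mean log2 ratio, exact permutation p = 0.1, adjusted 0.167). Ferritin genes have processed copies elsewhere in the genome, of which 4 rows with a summed mean of 17.1 CPM were in the table, and Ftl1 holds the small RNA gene Gm22133, at 12.4% of its level.

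Of the 6 genes of the membrane skeleton and band 3 complex, Sptb and Ank1 fell by about 6 log2 units, Epb42 fell less, and 3 did not pass. Sptb, beta spectrin of red cells (chr12:76580488-76710547), was at 268, 165 and 274 CPM against 6.28, 1.42 and 3.54 CPM (log2 fold change -5.98 ± 0.59 (SE), adjusted p = 0.000749). Ank1, the ankyrin that holds spectrin to band 3 (chr8:22974844-23150497), was at 228, 143 and 258 CPM against 5.48, 1.23 and 3.13 CPM (log2 fold change -6.00 ± 0.60 (SE), adjusted p = 0.000755). The AE9a-Ddit4-/- values of these partners stood in the same order of libraries, 1 above 3 above 2. Epb42, protein 4.2, was at 12.5, 10.3 and 17.5 CPM against 4.43, 3.69 and 6.53 CPM (log2 fold change -1.46 ± 0.37 (SE), adjusted p = 0.0209), and leaving out library 3 of AE9a-Ddit4+/+ or library 1 or 2 of AE9a-Ddit4-/- raised its adjusted p to 0.0761, 0.0705 and 0.0669. Slc4a1, band 3 itself (chr11:102348824-102366203), was at 27.5, 11.3 and 27.3 CPM against 38.1, 3.95 and 17.3 CPM, and the groups overlapped (log2 fold change -0.16 ± 0.73 (SE), adjusted p = 0.89). AE9a-Ddit4-/- library 1 had the highest Slc4a1 of all 6 libraries and library 2 the lowest, a 9.64-fold range. Without AE9a-Ddit4-/- library 1 its log2 fold change was -1.04, and without library 2 it was 0.27. Epb41 (protein 4.1) and Gypc (glycophorin C), which also serve other cells, had log2 fold changes of -0.53 ± 0.42 and -0.38 ± 0.36 (SE), with overlapping groups.

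The surface genes held some of the largest falls. Rhag, which carries the Rh complex to the membrane (chr17:40811126-40840754, plus strand), was at 385, 354 and 396 CPM in AE9a-Ddit4+/+ and at 6.41, 0.626 and 4.76 CPM in AE9a-Ddit4-/- (log2 fold change -6.59 ± 0.82 (SE), adjusted p = 0.00156). Its partner Rhd was at 47.6, 15.7 and 34.7 CPM against 1.72, 0.691 and 1.21 CPM (log2 fold change -4.76 ± 0.56 (SE), adjusted p = 0.0013). Rhag differed little among the AE9a-Ddit4+/+ libraries, 1.12-fold from lowest to highest, whereas Rhd differed 3.03-fold. Kel, the Kell blood group peptidase (chr6:41686330-41704339, minus strand), was at 127, 79.3 and 127 CPM against 3.12, 0.329 and 2.27 CPM (log2 fold change -5.86 ± 0.77 (SE), adjusted p = 0.002). Ermap, the Scianna blood group protein, was at 136, 104 and 122 CPM against 7.47, 0.56 and 3.29 CPM (log2 fold change -5.00 ± 0.83 (SE), adjusted p = 0.00465), and the tetraspanin gene Tspan33 at 113, 165 and 183 CPM against 5.62, 1.45 and 4.77 CPM (log2 fold change -5.28 ± 0.55 (SE), adjusted p = 0.000848). In AE9a-Ddit4-/- library 2 all of these but Tspan33 were under 1 CPM, yet Kel with 20 counts and Rhag with 38 counts were still above the limit of detection. Aqp1, the water channel of red cells and of vessels, was at 11.3, 31.8 and 10.4 CPM against 18.7, 17.6 and 10.3 CPM, with overlapping groups (log2 fold change -0.20 ± 0.49 (SE), adjusted p = 0.785).

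The windows of Rhag and Kel are shown as the surface genes with the largest falls.
Rhag (chr17:40810899-40811148, plus strand): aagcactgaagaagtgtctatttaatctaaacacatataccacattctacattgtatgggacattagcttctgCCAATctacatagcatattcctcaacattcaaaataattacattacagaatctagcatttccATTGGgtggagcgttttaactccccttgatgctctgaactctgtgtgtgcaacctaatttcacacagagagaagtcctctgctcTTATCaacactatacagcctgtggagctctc
Kel (chr6:41704326-41704575, minus strand): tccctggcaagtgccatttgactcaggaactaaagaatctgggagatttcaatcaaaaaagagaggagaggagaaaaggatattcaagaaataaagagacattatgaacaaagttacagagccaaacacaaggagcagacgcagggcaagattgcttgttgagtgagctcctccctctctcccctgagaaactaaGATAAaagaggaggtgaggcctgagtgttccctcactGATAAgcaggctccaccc
Both held GATAA within 55 bases of the start, Kel at 55 to 51 and at 18 to 14 bases before it and Rhag at 31 to 27 on the opposite strand.

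A RefSeq window was at hand for 28 of the 38 genes and for 27025 genes in all. GATAA occurred in 13 of the 20 lower genes with a window (65.0%), in 2 of the 8 that did not pass, and in 25.5% of all genes. CCNCNCCC occurred in 10 of 20, in 7 of 8 and in 48.5%, CCAAT in 11 of 20, in 5 of 8 and in 37.5%, and TATAAA in 5 of 20, in 1 of 8 and in 14.3%, in the same order. A gene with several start sites counted if any window held the letters, and CCNCNCCC matches can overlap each other. Hba-a1 and Hba-a2, whose windows share 247 bases, were counted separately among the lower genes with GATAA and with CCAAT. Windows of Slc11a2, Car1, Car2, Fech, Slc25a37, Hbb-bh1, Slc40a1, Ank1, Slc4a1 and Gypc were not used here. These shares describe letters in a window and do not show binding.

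Of the other red cell proteins, Blvrb, the biliverdin reductase of red cells, was at 111, 49.8 and 68.9 CPM against 21.2, 18.3 and 20.97 CPM (log2 fold change -1.92 ± 0.31 (SE), adjusted p = 0.0042). The nuclear protein gene Hemgn was at 27.0, 11.2 and 35.0 CPM against 6.54, 15.6 and 16.8 CPM, with overlapping groups (log2 fold change -0.91 ± 0.51 (SE), adjusted p = 0.215).

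Many of the lower genes shared an order of the libraries within a group. For 19 of the 24 lower genes AE9a-Ddit4-/- library 2 was the lowest of its group, and for 16 the order was library 1, then 3, then 2. For the 13 genes that did not pass, these numbers were 4 and 2, and among all genes tested the shares were 34.1% and 18.9%. A low library 2 was not particular to red cell genes. In AE9a-Ddit4-/- libraries the neutrophil marker Ngp was at 1335, 363 and 1599 CPM, the monocyte marker Cd14 at 64.4, 9.47 and 57.6 CPM and the T cell marker Cd3e at 5.77, 0.609 and 4.31 CPM. Other markers did not have library 2 lowest. Among them were the megakaryocyte marker Itga2b at 1945, 2330 and 1788 CPM and the neutrophil marker Ctsg at 138, 301 and 193 CPM. The neutrophil markers Mpo (339, 491 and 536.5 CPM) and Prtn3 (61.5, 109 and 126 CPM) were lowest in library 1. AE9a-Ddit4+/+ library 2 was the lowest of its own group for 20 of the 24 lower genes and 8 of the 13 others, against 34.2% of all genes tested and 59.9% of all lower genes. The median ratio of the highest to the lowest AE9a-Ddit4-/- library was 3.18 for the lower genes and 1.65 for the others, while among AE9a-Ddit4+/+ libraries it was 1.68 and 2.21. The mitochondrial share was highest in AE9a-Ddit4-/- library 2, at 16.4%, and its part in this order was not tested. Without that library 22 genes of the list were lower.

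Counts were next set against Hbb-bs within each library, a description chosen after the values were seen and without a test. Per 100 Hbb-bs counts, Ank1 had 5.63, 5.64 and 6.78 counts in AE9a-Ddit4+/+ and 2.49, 3.21 and 2.43 in AE9a-Ddit4-/- libraries, and Alas2 had 1.54, 2.01 and 2.69 and 3.05, 3.59 and 4.57. Rhag went from 9.49, 14.0 and 10.4 to 2.92, 1.63 and 3.7 and Car1 from 64.8, 59.8 and 68.8 to 5.63, 6.85 and 12.9. A gene that fell less than Hbb-bs must rise in this ratio. The log2 fold change of Hbb-bs was -4.75 and the median over all genes tested was 0.04, so most genes rise in it. The share without overlap over all genes was not computed, so the counts below are not particular to the list. Of the 36 other genes tested 23 were higher per Hbb-bs count in AE9a-Ddit4-/- libraries without overlap, among them 12 of the 13 that did not pass, while 8 overlapped and 5 were lower (Car1, Ank1, Sptb, Rhag and Kel). Slc4a1, one of the 12, went from 0.678, 0.447 and 0.718 to 17.3, 10.3 and 13.5.

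**Figure D5:**
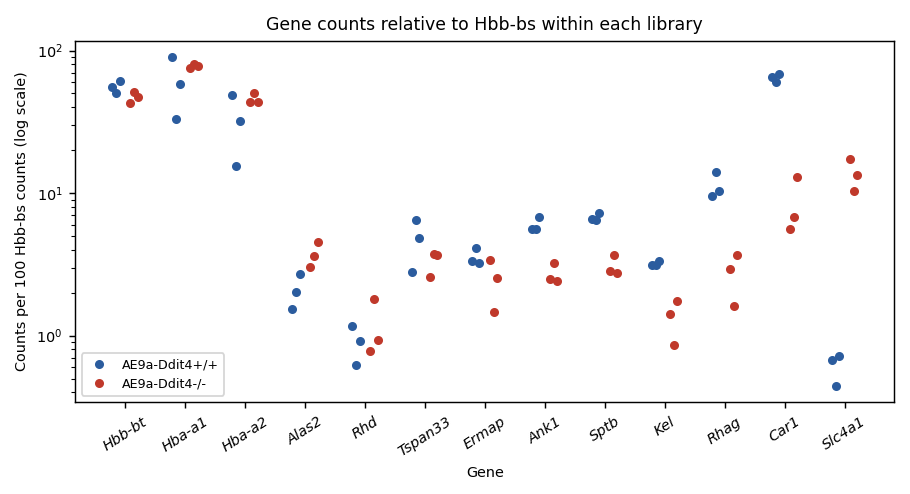
Points give the counts of each gene per 100 Hbb-bs counts (log scale) in each library, AE9a-Ddit4+/+ in blue and AE9a-Ddit4-/- in red. The globins and Rhd overlap between groups, Ank1, Sptb, Kel, Rhag and Car1 are lower in red, and Slc4a1, one of 23 such genes of the list, is higher in red.

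Of 94 other genes listed for the same pathways 84 were tested, of which 41 fell and 14 rose in AE9a-Ddit4-/- cells. Over all genes tested, 10.7% were lower and 19.4% higher. The share that rose here was close to that over all genes and is not read as a trait of these lists. The lists gave 13 lower and 4 higher of 31 heme and iron genes, 11 and 3 of 21 membrane and surface genes, 10 and 4 of 16 red cell enzymes and late genes, 5 and 2 of 12 erythroid transcription factors, and 2 and 1 of 4 other globin genes. Their median log2 fold change was -0.86. Log2 fold changes were -4.73 for Tmod1, which caps the actin of the skeleton, -5.83 for the theta globin gene Hbq1b, -5.92 for Trim10 and -5.15 for Cldn13. They were -4.48 for the heme-binding protein gene Hebp1, -2.64 for Aco1, iron regulatory protein 1, and -2.11 for the ubiquitin ligase gene Ube2o. Pklr, pyruvate kinase of red cells, was at 43.0, 0.884 and 6.2 CPM in AE9a-Ddit4+/+ and at or under the limit of detection in AE9a-Ddit4-/- libraries, at least 90.5-fold lower. That bound rested on AE9a-Ddit4+/+ library 1: without it the level was at least 19.2-fold lower, and library 2 alone allowed 4.79-fold. Higher genes were the transferrin gene Trf (10.4, 17.9 and 6.76 CPM against 100.1, 91.9 and 149 CPM, log2 fold change 3.28 ± 0.41 (SE), adjusted p = 0.00154) and Bcam, the Lutheran blood group protein. Bcam was at or under the limit in AE9a-Ddit4+/+ and at 47.5, 32.9 and 25.4 CPM in AE9a-Ddit4-/- libraries, at least 192-fold higher.

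The transcription factors moved unequally. Klf1, an activator of globin and membrane genes, was at 32.3, 46.0 and 68.9 CPM in AE9a-Ddit4+/+ and at 0.819, 0.428 and 1.25 CPM in AE9a-Ddit4-/- (log2 fold change -5.87 ± 0.52 (SE), adjusted p = 0.000527). Gata1, chosen for naming after its value was seen, was at 153, 111 and 157 CPM against 132, 147 and 120.1 CPM (log2 fold change -0.08 ± 0.20 (SE), adjusted p = 0.803), and Gata2, the GATA factor of earlier progenitors, rose from 123, 140.4 and 178 CPM to 579, 613 and 501 CPM (log2 fold change 1.94 ± 0.21 (SE), adjusted p = 0.000869). Klf1 and Gata2 did not overlap between groups, whereas Gata1 did. The repressor gene Gfi1b and the cofactor gene Lmo2 had log2 fold changes of -1.36 and -1.62 (adjusted p = 0.00799 and 0.0201), and the call for Lmo2 was lost without AE9a-Ddit4+/+ library 1 or 3 or AE9a-Ddit4-/- library 1 or 3 (adjusted p 0.0528 to 0.0731).

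Some markers of other cell types differed between the groups at the same threshold. For comparison, 19.4% of all genes tested were higher and 10.7% lower, and each marker list is short. In AE9a-Ddit4-/- cells 6 of 9 megakaryocyte markers rose and 1, Vwf, fell. Their summed level was 137 to 224 CPM in AE9a-Ddit4+/+ and 2187 to 2878 CPM in AE9a-Ddit4-/- libraries. Itga2b gave the largest part of these sums, at 114, 88.0 and 146 CPM in AE9a-Ddit4+/+ and at 1945, 2330 and 1788 CPM in AE9a-Ddit4-/- libraries. Of 9 neutrophil markers 4 were lower (6851 to 11206 against 1829 to 4913 CPM). Of 6 progenitor and leukocyte markers, Kit, Cd34 and Ptprc were higher (521 to 595 against 1518 to 1937 CPM in sum). Kit, the receptor by which the donor cells were isolated, was at 28.0, 31.6 and 14.6 CPM in AE9a-Ddit4+/+ and at 509, 304 and 422 CPM in AE9a-Ddit4-/- libraries. Also higher were 4 of 10 monocyte and macrophage markers (152 to 239.7 against 221 to 590.2 CPM) and 6 of 7 B cell markers (1.05 to 4.86 against 64.5 to 127 CPM). The same held for 7 of 8 T and NK cell markers (10.2 to 48.2 against 78.4 to 102 CPM) and 4 of 7 stroma and endothelium markers (6.25 to 9.91 against 158 to 191 CPM). Nkg7, which did not pass, gave the largest part of the T and NK cell sums, which without it were 0.418 to 1.06 against 19.7 to 42.6 CPM. Pecam1, which blood cells also express, gave the largest part of the stroma and endothelium sums in AE9a-Ddit4-/- libraries, and without it the sums were 4.27 to 5.61 against 19.8 to 47.8 CPM. The B cell gene Ms4a1 and the NK cell gene Klrb1c had 0 counts in each AE9a-Ddit4+/+ library. The part of these shifts in the fall of the red cell genes was not tested.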

How the data were processed

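RNA-seq of AE9a-Ddit4+/+ and AE9a-Ddit4-/- leukemia cells (3 libraries each, grouped by sample title) was analysed from 1 table of estimated counts per gene that the authors deposited. Its values were whole already and were not rounded. Paired-end sequencing is stated. For the libraries, the methods describe rRNA depletion with a strand-keeping kit, and the labels an mRNA kit. The submitters' processing notes name GRCm38 and mm10. The aligner, the counter and the use of strand are not given in the sources used here. In each library the values 4, 8 and 12 occurred 1.40 to 1.62 times as often as the values 2, 6 and 10, so some fragments may have been counted repeatedly. The limit of detection was therefore set at 12 counts, which covers counting error only.

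Genes passing filterByExpr (18375) were fitted with the robust quasi-likelihood test of edgeR 4.0.16 in R 4.3.3, with TMM scaling, genotype as the only term and an adjusted p of 0.05 as threshold. The SE is the size of the log2 fold change over the root of F. Fold changes are AE9a-Ddit4-/- over AE9a-Ddit4+/+. Ratios were compared with exact permutation tests in SciPy. Positions, exon lengths and transcripts came from GENCODE M21 on GRCm38, and promoter windows from RefSeq (GRCm38.p6), matched by symbol. RefSeq starts can lie inside the GENCODE gene span, so a window can overlap it. The functions were tested on simulated data.

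All listed genes are named. From the other pathway lists, genes past the threshold with a mean of at least 10 CPM in 1 group are named, at most the 4 with the largest change per list, except for a few that are not reported here. The list members, the other lists and the tests were chosen with earlier results of these data known. Alternatives were DESeq2 1.42.0, other scalings and filters, counts divided by 4, a threshold of 0.01, a replicate block, mitochondrial genes left out and each library left out. Bounds and ratios of means without 1 library, and marker sums without 1 gene, were added after the values were seen.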

Additional observations from a re-analysis of the deposited data

How the results depend on the processing

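The number of listed genes lower in AE9a-Ddit4-/- cells was 24 and ranged from 21 (threshold of 0.01) to 25 (DESeq2) over the alternatives, with 0 higher in each of them. The number of other pathway genes that were higher was 14, against 8 at a threshold of 0.01 and 9 with a replicate block. Over all genes, 1975 were lower and 3560 higher, against 712 and 1964 at 0.01, 787 and 2177 with the replicate block, 1168 and 1089 lower when library 1 or 3 of AE9a-Ddit4+/+ was left out, 1157 lower when library 1 of AE9a-Ddit4-/- was, and 1574 and 2341 with at least 10 counts in every library. Same-numbered libraries did not deviate together (correlations -0.27, -0.32 and -0.012), so the numbers were not taken as pairs. With the replicate block 22 listed genes were lower, 30 other pathway genes were lower against 41, and Fth1, Uros and Lmo2 lost their calls. As paired differences the adult globin share fell by 0.862 percentage points (exact permutation p = 0.25, the smallest that 3 pairs allow). Fth1 also lost its call with RLE scaling (adjusted p = 0.0505) and with the count minimum (0.0762), and Ppox passed with DESeq2 (0.0456).

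The log2 fold change of Tfrc, -0.01 here, turned positive with RLE scaling (0.00657), the count minimum of 10 (0.0536), DESeq2 (0.00657), counts divided by 4 (0.00302), the replicate block (0.0229) and mitochondrial genes left out (0.00204). With 1 library left out the log2 fold changes ran from -0.24 to 0.24 for Tfrc, -1.04 to 0.27 for Slc4a1, -0.50 to 0.26 for Alas1, -0.48 to 0.51 for Aqp1, -0.67 to 0.11 for Gypc, -0.27 to 0.0142 for Slc25a37 and -0.0181 to 0.15 for Ftl1. None of these genes passed the threshold. The causes of these changes were not tested.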
